A study of Mus musculus with 13 samples.

Results

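The G protein, RGS, adenylyl cyclase and phosphodiesterase genes carry signals from membrane receptors to cyclic AMP and back. They were followed here in whole brain hemispheres of wild type and R6/2 mice, on Affymetrix MG-U74Av2 arrays, which read each gene by 1 or more sets of short probes. Members were the probe sets that the array's annotation pairs with 1 gene whose symbol begins with Gna, Gnb or Gng, Rgs, Adcy followed by a digit, or Pde followed by a digit, with Pde1b left out. This gave 84 of 12422 probe sets and 57 of 8251 genes: 27 probe sets of 15 G alpha genes, 7 of 5 G beta genes, 8 of 6 G gamma genes, 20 of 13 RGS genes, 8 of 7 adenylyl cyclase genes and 14 of 11 phosphodiesterase genes. Adcyap1 and its receptor gene do not meet the digit rule, and 1 probe set shared by Gng5 and its pseudogene was left out. By their symbols the members also include Gnasas1, the antisense RNA of the Gnas locus, Pde4dip, the scaffold protein myomegalin, and Pde6d, a chaperone of prenylated proteins, none of which is a G protein subunit or a catalytic phosphodiesterase. The rule itself reads symbols, not signals.

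R6/2 mice are a transgenic model of Huntington's disease, in which exon 1 of human huntingtin is expressed with an expanded CAG tract. There were 3 untreated wild type arrays, 3 treated wild type arrays, 4 untreated R6/2 arrays and 3 treated R6/2 arrays. The triple treatment joined tacrine, a cholinesterase inhibitor, at 2.7 mg/kg per day from 5 weeks of age, moclobemide, an inhibitor of monoamine oxidase A, at 10 mg/kg per day, and creatine at 1% w/v in the mash. The labels list these drugs for every sample, so treatment was taken from the titles, and a harvest at 8 weeks is given for 1 untreated wild type sample. Array numbers below are names in accession order and pair nothing. The description of treated R6/2 array 1 repeats the lot number of untreated R6/2 array 4. The labels do not say that each array is a separate animal or whether animals were pooled, so p-values measure the spread between these arrays, which may be technical.

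A receptor that binds its ligand makes a G alpha subunit exchange GDP for GTP and part from its G beta and G gamma partners. G alpha s and G alpha olf raise cyclic AMP through adenylyl cyclases, G alpha i and o lower it, and G alpha q acts on phospholipase C. RGS proteins end the signal by speeding GTP hydrolysis on G alpha, and phosphodiesterases break the cyclic nucleotide down. In the striatum, the region most affected in Huntington's disease, dopamine and adenosine receptors act on the projection neurons through this cascade.

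The promoter windows of Rgs4, Rgs2 and Rgs16, members of 1 family on chromosome 1 that were lower in R6/2 brains on average over treatment, are shown. Rgs8 meets the same description, but its 3 windows are not shown. Cyclic AMP is known to act on transcription through CREB, whose element is TGACGTCA, with TGACG as a shorter form of it. Each window is the 250 bases before the gene's start in RefSeq on GRCm38.p6, printed 5′ to 3′ on the gene's strand, with TGACG and its other-strand form CGTCA in capitals. Rgs4 lies on the minus strand at chr1:169747643-169747892, Rgs2 on the minus strand at chr1:144004150-144004399 and Rgs16 on the plus strand at chr1:153740103-153740352.
Rgs4: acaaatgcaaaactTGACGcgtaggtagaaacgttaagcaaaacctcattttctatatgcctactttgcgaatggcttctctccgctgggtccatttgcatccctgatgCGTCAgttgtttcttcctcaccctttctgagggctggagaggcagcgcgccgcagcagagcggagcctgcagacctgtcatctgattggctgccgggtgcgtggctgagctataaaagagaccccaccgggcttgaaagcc
Rgs2: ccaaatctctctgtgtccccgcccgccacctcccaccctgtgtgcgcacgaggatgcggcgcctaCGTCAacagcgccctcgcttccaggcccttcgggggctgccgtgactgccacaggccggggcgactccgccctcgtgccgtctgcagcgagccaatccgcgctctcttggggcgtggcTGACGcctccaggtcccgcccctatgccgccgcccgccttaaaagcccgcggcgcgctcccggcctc
Rgs16: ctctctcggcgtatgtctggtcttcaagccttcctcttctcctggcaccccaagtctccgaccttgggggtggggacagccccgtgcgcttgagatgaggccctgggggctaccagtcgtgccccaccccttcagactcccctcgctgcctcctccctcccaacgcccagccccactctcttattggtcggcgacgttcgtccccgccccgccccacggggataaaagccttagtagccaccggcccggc
The Rgs4 window held the 5 letters 236 and 141 bases before the start, the Rgs2 window 185 and 67 bases before it, and the Rgs16 window not at all. Of 32851 windows of this length in the table, 17.8% held TGACG on either strand and 1.55% held TGACGTCA. Windows were found for 42 of the 57 genes, 64 windows in all, and 13 of them (20.3%) in 11 genes held TGACG, with TGACGTCA in 0. Of the 7 genes lower in R6/2 on average, Rgs11 and Rgs14 had no window, and Rgs2, Rgs4, Adcy9 and, in 1 of its 3 windows, Rgs8 held TGACG. By window this was 4 of 7 (57.1%), for genes picked from these same data. So few windows cannot show a link with the changes, which was not tested. A match describes letters, not a bound site. Rgs8 and Rgs16 are next to each other among the protein-coding genes of chromosome 1, as are Rgs5 and Rgs4.

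Values are signals on a linear scale, the deposited intensities, and changes are log2 differences ± the standard error (SE) of a limma fit to all 13 arrays. A probe set is called higher or lower where its p, adjusted by Benjamini-Hochberg over all 7453 probe sets kept by a filter on dim signals, was under 0.05. The filter asked for a mean log2 signal over all arrays that reached the 40th percentile, a signal of 24.9. It kept 64 of the 84 member probe sets, of 46 genes, and the other 20 are given without a test. The signal of a probe set is not compared with that of another, since probes differ in how well they bind.

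The array medians were 39.6 to 45.1. Untreated R6/2 arrays 2 and 3 stood apart, at 25.4 and 45.7 on the first principal component with the other 11 at 4.09 or less, so results that rest on them are given with and without them. Marker genes of cell types also moved with genotype. The summed signal of 8 striatal projection neuron genes was 3058.8 to 3569.4 in untreated wild type, 3284.4 to 3728.3 in treated wild type, 1570.8 to 1859.1 in untreated R6/2 and 1509 to 1628.9 in treated R6/2 arrays. In untreated mice 4 of its 7 kept genes were called lower, as were 5 of 11 pan-neuronal, 4 of 7 oligodendrocyte and 2 of 7 astrocyte genes and 1 of 3 blood genes, where 6.41% of all probe sets were. The median untreated change was 0.18 for the astrocyte list, against 0.04 over all probe sets. It was -0.76 for the striatal, -0.44 for the pan-neuronal, -0.55 for the oligodendrocyte and -1.02 for the blood list. In treated mice 4 of the 7 striatal genes were lower, against 0.711% of all probe sets, and 0 of the other markers. Averaged over treatment 6 of 7 striatal, 5 of 7 oligodendrocyte, 4 of 11 pan-neuronal and 1 of 7 astrocyte genes were lower, against 4.04%. With untreated R6/2 arrays 2 and 3 left out the averaged counts were 6 striatal, 5 oligodendrocyte, 5 pan-neuronal and 1 astrocyte genes. The averaged calls then also took in 2 cerebellar genes. Of all probe sets 5.69% were then called on average in either direction and 3.97% called lower. The untreated counts then fell to 3 striatal, 3 pan-neuronal, 2 oligodendrocyte, 0 astrocyte and 0 blood genes. In that comparison 2.24% of all probe sets were then called in either direction and 1.65% called lower. In treated mice 6 striatal and 2 oligodendrocyte genes were then called, with 1.6% of all probe sets called in either direction and 1.3% called lower. With all arrays none of the microglial (7), choroid plexus (3), cerebellar (8) or retinal (2) genes was called, and no marker was at 0 on all arrays. In these bulk samples fewer cells of a type and less RNA per cell cannot be told apart, and the part of these markers in the results below was not tested.

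In untreated mice 14 of the 64 kept members (21.9%) differed between R6/2 and wild type, against 11.9% of all kept probe sets. Of these, 11 were lower, where the share over all probe sets was 6.41%, and 3 were higher, against 5.49%. The calls fell unevenly over the families. They took in 9 of 15 RGS probe sets (7 lower and 2 higher, of 7 genes), 2 of 6 G beta, 2 of 7 G gamma, 1 of 8 adenylyl cyclase, 0 of 19 G alpha and 0 of 9 phosphodiesterase probe sets. The median change was -0.46 over the RGS probe sets, -0.17 over all members and 0.04 over all kept probe sets. In treated mice 3 members (4.69%) were called, all lower, against 0.792% of all probe sets called in either direction and 0.711% called lower. Averaged over treatment 10 members (15.6%) were called, against 6.61%, with 8 of them lower (4.04% of all) and 2 higher (2.58%). The genotypes did not overlap for 22 members in untreated mice (26.2% of all probe sets) and for 17 in treated mice (16.8%).

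The untreated count depended on single arrays. It was 3 without untreated wild type array 2, 4 without array 3 and 9 without array 1, where the share of all probe sets called also fell, to 2.09%, 2.94% and 4.96%. It was 7 and 8 without untreated R6/2 arrays 2 and 3 in turn (5.31% and 6.57% of all), and 18 without untreated R6/2 array 1 or 4 (16.7% and 17.5%). The members' share was above that of all probe sets in each of the 13 such fits, which share most of their arrays and are not independent. With untreated R6/2 arrays 2 and 3 both left out the untreated count was 4, all lower, against 1.65% of all probe sets called lower. The averaged count was then 9, all lower, against 3.97%. The treated count was 1 without treated R6/2 array 1 or 2 (0.268% and 0.684% of all), and 5, all lower against 1.3%, without untreated R6/2 arrays 2 and 3. The 4 untreated calls that stayed without those arrays were Rgs4, Rgs14, 1 probe set of Rgs16 and 1 of Adcy9.

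**Figure D1:**
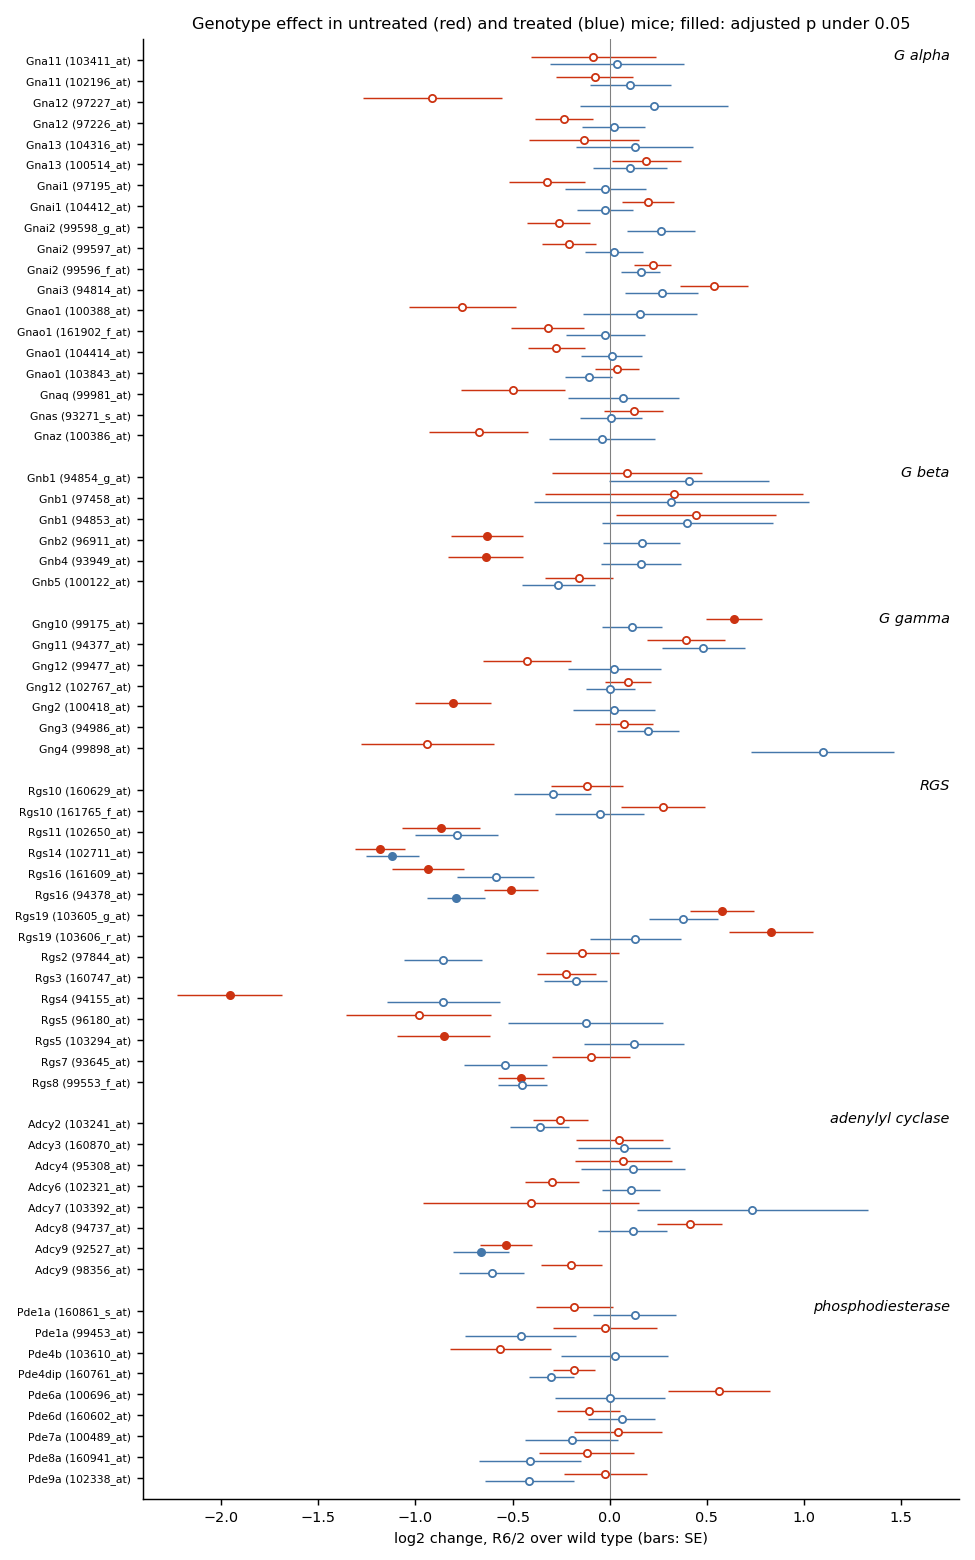
Each line is 1 of the 64 kept member probe sets, grouped by family; points are log2 changes of R6/2 over wild type in untreated mice (red) and treated mice (blue), bars are SE, and filled points have an adjusted p under 0.05. The RGS block holds 7 of the 11 filled red points below 0, from Rgs4 at -1.96 to Rgs8 at -0.46, and no G alpha or phosphodiesterase point is filled.

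The RGS family held all members whose genotypes were fully apart. In 6 probe sets of 5 RGS genes every one of the 7 R6/2 arrays lay below every one of the 6 wild type arrays: Rgs14, Rgs4, both probe sets of Rgs16, Rgs11 and Rgs8. No other member was separated in this way in either direction, so the members' share was 9.38% lower and 0.0% higher, against 2.37% and 1.44% of all kept probe sets.

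Rgs14 codes for an RGS protein of G alpha i and o that also binds Ras family GTPases. Its probe set 102711_at read 406.3, 456.5 and 400.4 in untreated and 442.8, 404.7 and 434.7 in treated wild type mice. It read 198.7, 204, 146.6 and 198.5 in untreated and 183.1, 202.6 and 204.8 in treated R6/2 mice. The R6/2 signals thus lay between 146.6 and 204.8 and the wild type signals between 400.4 and 456.5, and within each genotype treated and untreated arrays overlapped. The change was -1.18 ± 0.13 in untreated mice (adjusted p = 0.000244), -1.12 ± 0.14 in treated mice (adjusted p = 0.00109) and -1.15 ± 0.09 on average, and each call stayed with any 1 array left out. Without untreated R6/2 arrays 2 and 3 the untreated change was -1.08 ± 0.11.

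Rgs4 codes for a regulator of G alpha i, o and q signals that is abundant in forebrain neurons. Its probe set 94155_at read 150.8, 181.2 and 175.9 in untreated wild type, 75.5, 120.7 and 101.9 in treated wild type, 41.9, 49, 24.9 and 70.1 in untreated R6/2 and 45.2, 57.4 and 60.3 in treated R6/2 mice. The treated wild type arrays lay below the untreated ones and above all R6/2 arrays. The change was -1.96 ± 0.27 in untreated mice, a 3.88-fold lower signal (adjusted p = 0.0012), and -1.64 ± 0.24 without arrays 2 and 3 (adjusted p = 0.00372). In treated mice it was -0.86 ± 0.29, which did not pass (adjusted p = 0.283), while with array weights it did (adjusted p = 0.0214). The difference between those values, the interaction, was 1.10 ± 0.40 (adjusted p = 0.316), and the change with treatment in wild type mice was -0.79 ± 0.29 (adjusted p = 0.386), so neither passed.

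Rgs16 codes for a small RGS protein of G alpha i, o and q and was read by a pair of probe sets. The first, 161609_at, read 45 to 58.1 in the wild type and 21.4 to 34.7 in the R6/2 arrays. The second, 94378_at, read 123.5, 150.1 and 144.4 in untreated and 203.2, 163.4 and 159.6 in treated wild type, and 95.4, 100.3, 88 and 107.8 in untreated and 93.9, 93.5 and 116.4 in treated R6/2 mice. Neither probe set had an R6/2 array above a wild type array. The averaged changes were -0.76 ± 0.14 and -0.65 ± 0.10 (adjusted p = 0.00395 and 0.00155), each called with any 1 array left out. In treated mice 94378_at was called (-0.79 ± 0.15, adjusted p = 0.0173) and 161609_at was not (-0.59). The treated call of 94378_at was lost without treated wild type array 1 (-0.68, adjusted p = 0.108), treated R6/2 array 1 (-0.74, adjusted p = 0.111) or treated R6/2 array 2 (-0.74, adjusted p = 0.0647). In untreated mice 161609_at was called in every fit with 1 array left out (-0.94 ± 0.19), while the untreated call of 94378_at (-0.51 ± 0.14) was lost without untreated wild type array 2 (-0.45) or 3 (-0.48) or untreated R6/2 array 2 (-0.52) or 3 (-0.46).

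Rgs11, of the R7 group of RGS proteins that pair with G beta 5, was read by 102650_at at 86.2, 115 and 115.6 in untreated and 105.7, 130.7 and 121.3 in treated wild type mice. The R6/2 signals were 84.5, 51.9, 42.4 and 57.9 untreated and 63.8, 69.9 and 73.1 treated. Untreated R6/2 array 1, at 84.5, lay just under the lowest wild type array, at 86.2, and the other R6/2 arrays lay at 73.1 or less. The averaged change was -0.83 ± 0.15 (adjusted p = 0.00384), and -0.68 without the untreated R6/2 arrays 2 and 3 (adjusted p = 0.00783). In untreated mice the change of -0.87 ± 0.20 lost its call without those 2 arrays (-0.58, adjusted p = 0.125) and without untreated wild type array 2 (-0.80, adjusted p = 0.0763) or 3 (-0.80, adjusted p = 0.0788). The treated change of -0.79 was called in 4 alternatives, with adjusted p of 0.0364 in the fit that leaves out untreated R6/2 arrays 2 and 3. The R7 member best known in the striatum, Rgs9, was under the filter, with signals of 1.9 to 11.9, and Rgs7 was not called in any comparison (-0.10 untreated and -0.54 treated).

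Rgs8, a regulator of G alpha i and o known from Purkinje cells and striatum, showed a smaller step. Its probe set 99553_f_at, of a type whose probes can also bind related sequences, read 172.7 to 220.9 in the wild type and 135.5 to 160.1 in the R6/2 arrays. The change was -0.46 ± 0.12 in untreated mice, -0.45 ± 0.13 in treated mice, where it was not called (adjusted p = 0.153), and -0.45 ± 0.09 on average (adjusted p = 0.00643), the last called with any 1 array left out. With array weights the treated change was called (-0.49, adjusted p = 0.0278). The untreated call (adjusted p = 0.0268) was lost without untreated wild type array 2 (-0.41, adjusted p = 0.112) or 3 (-0.39, adjusted p = 0.121), and without untreated R6/2 arrays 2 and 3 together (-0.52, adjusted p = 0.0665).

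**Figure D2:**
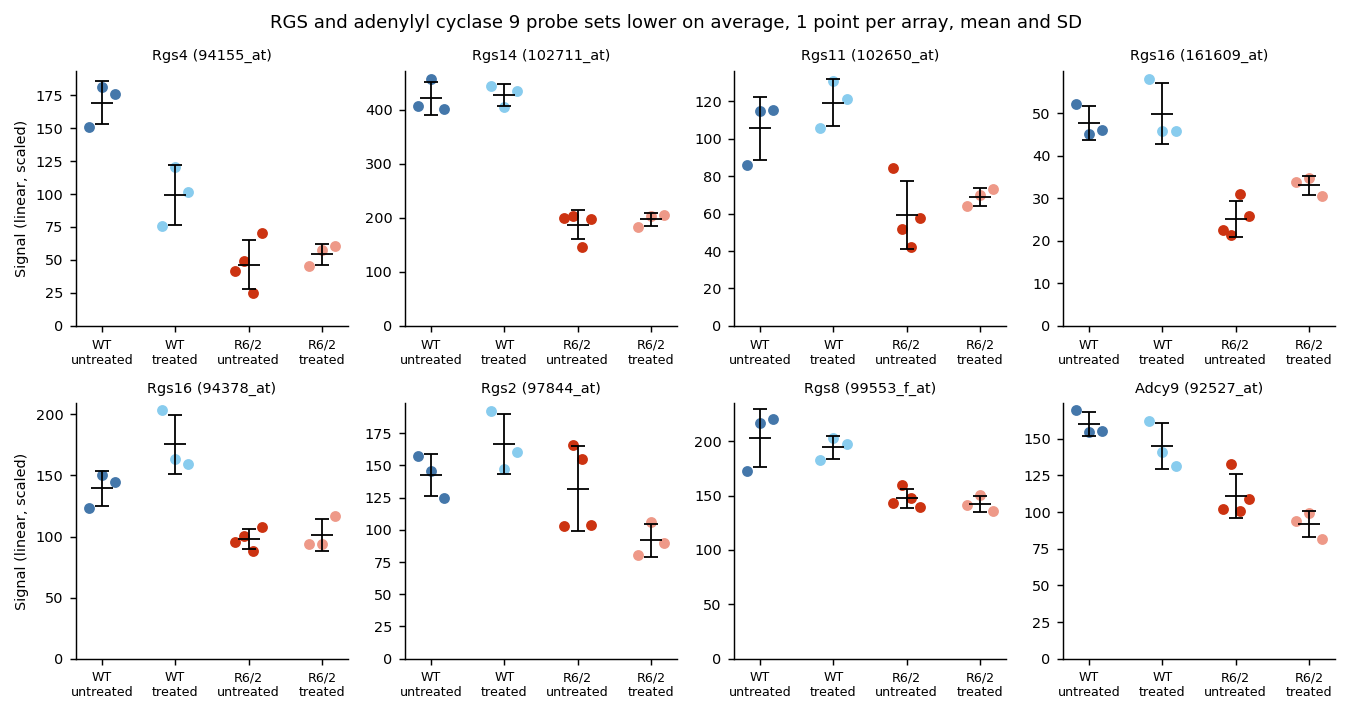
Signals (linear scale, from 0) of the 8 member probe sets called lower in R6/2 on average over treatment (7 of RGS genes and 1 of Adcy9), 1 point for each array, with the mean and SD of each of the 4 groups. For Rgs14, Rgs4, both Rgs16 probe sets, Rgs11 and Rgs8 all 7 R6/2 points lie below all 6 wild type points.

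Rgs2, a regulator of G alpha q that neuronal activity induces, was called lower in R6/2 only on average over treatment. Its probe set 97844_at read 157, 146 and 125.1 in untreated wild type, 192.5, 146.9 and 160.2 in treated wild type, 103.2, 165.8, 155.4 and 103.8 in untreated R6/2 and 80.2, 105.8 and 89.6 in treated R6/2 mice. The treated groups did not overlap, and in the untreated groups arrays 2 and 3 of R6/2 lay among or above the wild type signals. The change was -0.14 ± 0.19 untreated and -0.86 ± 0.20 treated (adjusted p = 0.0618), and only the averaged change of -0.50 ± 0.14 was called (adjusted p = 0.0409). That call was lost in 10 of the 13 fits with 1 array left out, where the change stayed between -0.56 and -0.44 over all 13. It was also lost with each array divided by its median (adjusted p = 0.0519) and with no filter (adjusted p = 0.0869). With untreated R6/2 arrays 2 and 3 set aside the change was -0.46 ± 0.16 untreated (adjusted p = 0.151), and both the treated change (-0.86 ± 0.14, adjusted p = 0.00896) and the averaged change (-0.66 ± 0.11, adjusted p = 0.00382) were called. The treated change was also called with array weights (adjusted p = 0.0099), with only the arrays compared (adjusted p = 0.0381), with the filter at the 60th percentile (adjusted p = 0.047) and in 3 of the 13 fits with 1 array left out. The interaction of -0.72 ± 0.27 did not pass (adjusted p = 0.316), nor did that of -0.40 ± 0.22 without those arrays (adjusted p = 0.609).

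Rgs5, a regulator known from pericytes of small vessels, was read by a pair of probe sets. The first, 103294_at, read 87.4, 98.7 and 56.7 in untreated wild type, 41.6, 58.1 and 62.4 in treated wild type, 43.9, 43.1, 39.8 and 47.8 in untreated R6/2 and 41, 58.5 and 81.7 in treated R6/2 mice. Untreated wild type arrays 1 and 2 were the highest of all, the untreated genotypes did not overlap, and the treated ones did. Only the untreated change was called (-0.86 ± 0.24, adjusted p = 0.037), and the second probe set, 96180_at, gave -0.98 ± 0.37 without passing (adjusted p = 0.093), though it passed without treated R6/2 array 1 (adjusted p = 0.0487). The call of 103294_at was lost without untreated wild type array 1 (-0.78) or 2 (-0.69), untreated R6/2 array 2 (-0.85) or 3 (-0.81), or both of those R6/2 arrays (-0.78, adjusted p = 0.185). It was also lost with array weights (-0.74, adjusted p = 0.0852), with no filter (adjusted p = 0.0835) and with only the arrays compared (adjusted p = 0.0513). The summed signal of the 3 blood genes was 1979.4 to 3524.7 in untreated wild type arrays and 904.4 to 2146.3 in the other groups, and its part in the change of Rgs5 was not tested.

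Rgs19, a regulator of G alpha i3, was the RGS gene that was higher in R6/2. Its probe set 103605_g_at read 50.8, 42.6 and 36.6 in untreated wild type and 56.9, 68, 69.4 and 62.9 in untreated R6/2, and 43.3, 33.9 and 44.5 in treated wild type and 55.3, 50.4 and 51.6 in treated R6/2 mice. The genotypes did not overlap within either treatment. The changes were 0.58 ± 0.16 untreated (adjusted p = 0.0384), 0.38 treated (adjusted p = 0.538) and 0.48 ± 0.12 on average (adjusted p = 0.0288). The second kept probe set, 103606_r_at, was called in untreated mice (0.83 ± 0.22, adjusted p = 0.0279) and not on average (0.48, adjusted p = 0.0852) save with array weights (0.52, adjusted p = 0.0257) or without treated R6/2 array 2 (0.64, adjusted p = 0.00872), and another, 103604_at, was under the filter. Without untreated R6/2 arrays 2 and 3 neither untreated call stayed (0.48 and 0.79, adjusted p = 0.217 and 0.132), nor did the averaged call (0.43, adjusted p = 0.0868). Each of these calls was also lost in 5 or 6 of the 13 fits with 1 array left out, with changes between 0.46 and 0.70, 0.66 and 0.92, and 0.42 and 0.54.

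The rest of the family gave no calls with all arrays. Rgs3 gave changes of -0.22 untreated and -0.17 treated. The kept probe sets of Rgs10 differed in sign in untreated mice, at -0.12 and 0.28, and its other probe set was under the filter, as was all of Rgs6. The Rgs6 signals were 20.4 to 29.4 in untreated and 5.2 to 36.9 in treated wild type arrays. In R6/2 arrays they were 5.3 to 7.1 untreated and 8.5 to 25.3 treated. Leaving out untreated R6/2 arrays 2 and 3, the averaged change of Rgs10 on 160629_at was called lower (-0.38 ± 0.09, adjusted p = 0.0315), against -0.20 ± 0.14 with them (adjusted p = 0.384). Its other kept probe set, 161765_f_at, then gave -0.04, against 0.11 with them.

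**Figure D3:**
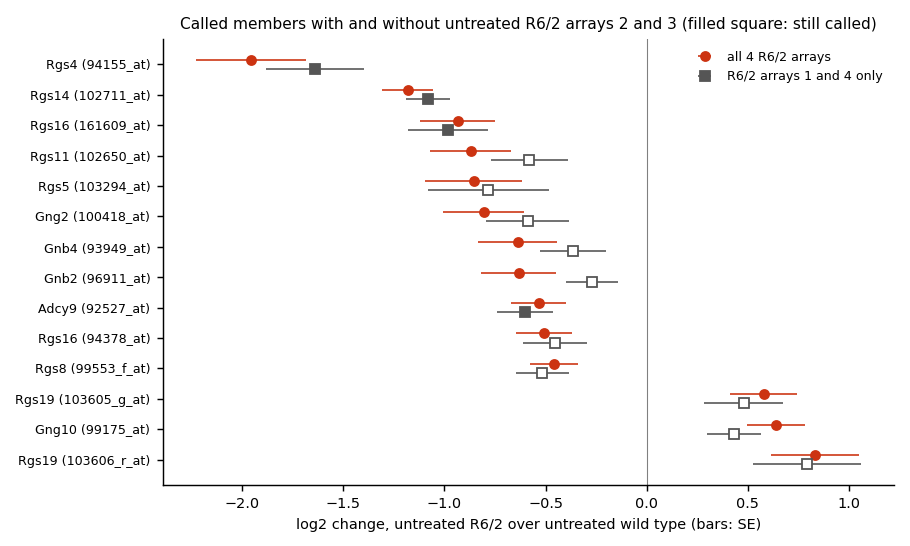
The 14 probe sets called in untreated mice, with log2 changes of R6/2 over wild type (bars are SE) from all 4 untreated R6/2 arrays (red) and from arrays 1 and 4 alone (grey squares, filled where still called). Rgs4, Rgs14, Rgs16 161609_at and Adcy9 stay filled, and Gnb2 moves most in proportion, from -0.63 to -0.27.

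Among the adenylyl cyclases, which make cyclic AMP from ATP, Adcy9 was the member that was called. Its probe set 92527_at read 169.7, 154.8 and 155.5 in untreated wild type, 162.4, 140.9 and 131.6 in treated wild type, 101.9, 133, 100.6 and 108.8 in untreated R6/2 and 93.9, 99.1 and 81.9 in treated R6/2 mice. Within each treatment the genotypes did not overlap. The change was -0.53 ± 0.13 untreated (adjusted p = 0.0239), -0.66 ± 0.14 treated (adjusted p = 0.047) and -0.60 ± 0.10 on average (adjusted p = 0.00235). The averaged call held with any 1 array left out. The untreated call was lost without untreated wild type array 1 (-0.49), 2 (-0.56) or 3 (-0.55). The treated call was lost in 10 of the 13 such fits (between -0.73 and -0.58 over all 13). With only the arrays compared in the fit both were lost (adjusted p = 0.066 untreated and 0.0773 treated). The treated call was also lost with each array divided by its median (adjusted p = 0.0603). A second Adcy9 probe set, 98356_at, gave changes of the same sign that did not pass, at -0.20 untreated, -0.61 treated (adjusted p = 0.148) and -0.40 on average (adjusted p = 0.0507). The averaged change of 98356_at was called under 6 of 9 processing alternatives, with adjusted p between 0.0169 and 0.0496, and without treated wild type array 1 (-0.52, adjusted p = 0.00583). Its treated change was called with array weights (-0.65, adjusted p = 0.0296) and without that array (-0.83, adjusted p = 0.0228).

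The other 6 cyclase genes, Adcy2, Adcy3, Adcy4, Adcy6, Adcy7 and Adcy8, were not called in any comparison. Adcy2, a cyclase that G beta gamma can stimulate, read 421.1 to 480 in untreated wild type and 361.2 to 399.7 in untreated R6/2 arrays, with a change of -0.26. Adcy7 varied 7.48-fold between arrays, from 8.1 to 60.6, and gave -0.41 untreated and 0.73 treated. Adcy5, the main cyclase of striatal neurons, had no probe set of its own in the annotation.

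The G alpha genes, which set which pathway a receptor reaches, gave no call in any comparison with all arrays, with untreated changes between -0.91 and 0.53 and treated changes between -0.11 and 0.27. Gnas, the gene of G alpha s, read 3123.3, 3576.4 and 3451.5 in untreated wild type, 3225, 3212.7 and 4258.3 in treated wild type, 2929.4, 3818.4, 4692.2 and 3496 in untreated R6/2 and 3425.1, 4038.1 and 3240.1 in treated R6/2 mice on 93271_s_at. These groups overlapped throughout, and the averaged change was 0.07 ± 0.11. A further pair of Gnas probe sets, Gnasas1, the photoreceptor transducin genes Gnat1 and Gnat2, and Gna14 and Gna15, of the q class, were under the filter. Gnal, whose G alpha olf couples striatal receptors to cyclases, had no probe set of its own.

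Probe sets of the same G alpha gene did not always move together. In untreated mice those of Gnao1, the most abundant brain alpha subunit, gave 0.04, -0.28, -0.32 and -0.76, with 1 more under the filter, and those of Gnai2, an inhibitory subunit, gave 0.22, -0.21 and -0.26. Gnai1 gave 0.20 and -0.32. Gnai3, another inhibitory subunit, had the highest untreated change of the family, 0.53 ± 0.18, without passing (adjusted p = 0.0601). Leaving out 1 array gave calls in untreated mice for Gnai3 without untreated R6/2 array 1 (0.65, adjusted p = 0.0219) or treated R6/2 array 1 (0.53, adjusted p = 0.0491). In the fits without untreated R6/2 array 1 or 4, which raise the weight of arrays 2 and 3, Gna12 (-1.14 and -1.16) and Gnao1 100388_at (-0.92 and -0.91) were called as well, with Gnao1 161902_f_at (-0.50) in the first and Gnaz (-0.87) in the second. The averaged change of Gnai3 was called in 2 such fits (0.46 and 0.49). With no filter the dim Gnao1 probe set 103844_at, at signals of 2.1 to 17.6, was called lower in untreated R6/2 mice (-1.96, adjusted p = 0.00249) and on average (-0.86, adjusted p = 0.0127).

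Of the G beta and G gamma genes, whose products act as 1 dimer on channels and cyclases, 4 were called in untreated mice. Gnb2 on 96911_at read 713.8, 800.4 and 772.9 in untreated wild type, 641.6, 728 and 747.9 in treated wild type, 641.1, 371.1, 392 and 623 in untreated R6/2 and 694.6, 941 and 752.4 in treated R6/2 mice. The low signals were those of untreated R6/2 arrays 2 and 3, which stand apart over all probe sets. The untreated change was -0.63 ± 0.18 (adjusted p = 0.0414) with them and -0.27 ± 0.13 without them (adjusted p = 0.283), and the call held in 5 of the 13 fits with 1 array left out (between -0.76 and -0.50).

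Gnb4 on 93949_at read 86.6, 85.7 and 90.7 in untreated wild type, 58.3, 76.7 and 58.6 in treated wild type, 68.5, 56.5, 38.4 and 67.7 in untreated R6/2 and 65, 69.5 and 81 in treated R6/2 mice. The untreated wild type arrays lay above all others. The untreated change was -0.64 ± 0.19 (adjusted p = 0.0474), with -0.36 without arrays 2 and 3 (adjusted p = 0.257), and it was called in 2 of the 13 fits with 1 array left out (between -0.73 and -0.45).

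Gng2 on 100418_at read 62.5, 70.7 and 81.5 in untreated wild type, 44.2, 55.3 and 49.2 in treated wild type, 42.5, 39.7, 30.8 and 52.7 in untreated R6/2 and 42.1, 49 and 60.8 in treated R6/2 mice. Here too the untreated wild type arrays stood above all others. The untreated change was -0.81 ± 0.20 (adjusted p = 0.0221) and the treated change 0.02. The call was lost without untreated R6/2 arrays 2 and 3 (-0.59, adjusted p = 0.144), without untreated R6/2 array 2 alone (-0.79, adjusted p = 0.0516), or without untreated wild type array 2 (-0.81, adjusted p = 0.0757) or 3 (-0.71, adjusted p = 0.1).

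Gng10 was the subunit that was higher. On 99175_at it read 206.8, 189.7 and 196.5 in untreated wild type, 255.2, 197.8 and 190.7 in treated wild type, 268.5, 371, 341.6 and 263.9 in untreated R6/2 and 244.1, 217.3 and 231.1 in treated R6/2 mice. Untreated R6/2 arrays lay above all others, with arrays 2 and 3 the highest. The change was 0.64 ± 0.14 untreated (adjusted p = 0.0161) and 0.38 ± 0.11 on average (adjusted p = 0.0454). Both calls were lost without arrays 2 and 3 (0.43 and 0.27, adjusted p = 0.111 and 0.107), the untreated one without untreated wild type array 2 (0.61) or 3 (0.64), and the averaged one in 10 of the 13 fits with 1 array left out (between 0.33 and 0.44).

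Gnb1 varied widely between arrays. Its probe set 97458_at read 87.8, 543.8 and 550.8 in untreated wild type, 745.3, 1342 and 716.4 in treated wild type, 776.7, 841.3, 148 and 202.3 in untreated R6/2 and 1321.2, 1460.3 and 718.3 in treated R6/2 mice, a 16.6-fold range, the highest of the 64 kept members, whose median was 2.07-fold. Its other probe sets, 94854_g_at and 94853_at, spanned 5.13-fold and 7.35-fold. On all 3 the lowest signals came from untreated wild type array 1 and untreated R6/2 arrays 3 and 4, and the highest from treated R6/2 array 2, treated wild type array 2 and treated R6/2 array 1, in that order. The spread crossed both genotypes, and no comparison was called. The changes with treatment were 1.59 ± 0.71 in wild type (adjusted p = 0.464) and 1.58 ± 0.66 in R6/2 mice (adjusted p = 0.27) on 97458_at. The remaining members Gnb5, Gng3, Gng11 and Gng12 gave no call, Gnb3 was under the filter, and Gng7, the partner of G alpha olf in striatum, had no probe set of its own.

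**Figure D4:**
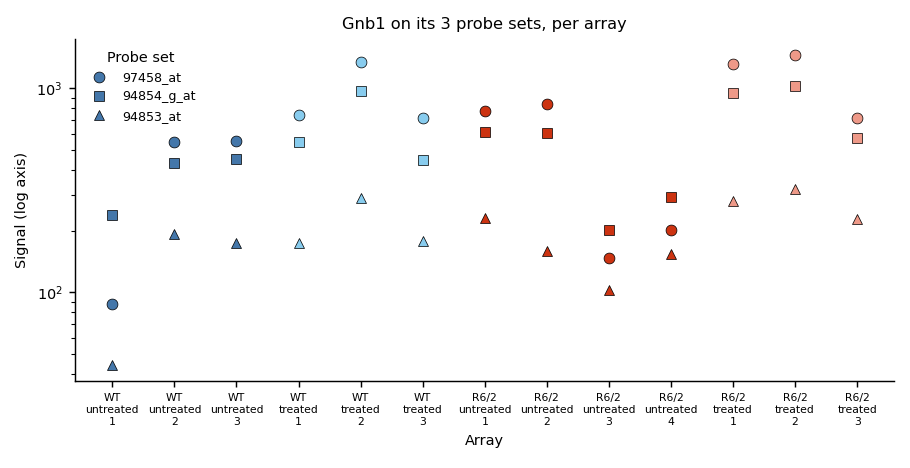
Signals of Gnb1 (log axis) on its 3 probe sets (circle, square, triangle) in each of the 13 arrays, coloured by group. Untreated wild type array 1 and untreated R6/2 arrays 3 and 4 are lowest on all 3 probe sets, with 97458_at at 87.8, 148 and 202.3.

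No phosphodiesterase among the members, which leave out Pde1b by rule, was called in any comparison with all arrays. Pde4b, a cyclic AMP phosphodiesterase, read 110.6 to 175.3 in untreated wild type and 68.4 to 111.1 in untreated R6/2 mice, which overlapped, with a change of -0.56 ± 0.26 (adjusted p = 0.159). The probe sets of Pde1a, a calmodulin-dependent enzyme, gave -0.18 and -0.02 in untreated mice. Pde4dip gave -0.18 untreated and -0.30 treated, and its averaged change was called with array weights (-0.21, adjusted p = 0.0492) and with no filter (-0.24, adjusted p = 0.0411). Pde4dip codes for a scaffold, and no catalytic phosphodiesterase among the members gained a call in an alternative. Pde6a, a subunit of the rod enzyme, gave 0.56 untreated and 0.00 treated. The untreated changes of Pde6d, Pde7a, Pde8a and Pde9a lay between -0.12 and 0.04. Pde1c, Pde6b and Pde6g were under the filter, and Pde10a, the striatal enzyme for both cyclic nucleotides, had no probe set of its own.

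The triple treatment gave no call among the members in either genotype, nor did its interaction with genotype, and limma called 0.0% of all 7453 probe sets in each of these comparisons. At an unadjusted p under 0.05 there were 13 members (20.3%) in R6/2 mice against 16.9% of all probe sets, 10 (15.6%) in wild type mice against 10.3%, and 12 (18.8%) for the interaction against 13.5%. The treated and untreated arrays did not overlap for 9 members in R6/2 mice (10.6% of all probe sets) and for 12 in wild type mice (21.8% of all probe sets). Without untreated R6/2 arrays 2 and 3 limma called 0 members in each of the 3, against 0.0134%, 0.107% and 0.0% of all probe sets for R6/2, wild type and the interaction. The treated arrays are also used in the genotype comparisons, so these values are not independent of those above.

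The members with the smallest interaction p were G gamma and G beta genes. Gng4 on 99898_at read 42.4, 45.6 and 42.8 in untreated wild type, 21.3, 29.5 and 11 in treated wild type, 23.6, 27.7, 12.3 and 33.2 in untreated R6/2 and 41, 39.8 and 41.4 in treated R6/2 mice. Treated wild type arrays lay below untreated ones and treated R6/2 arrays above untreated ones. The changes with treatment were -1.19 ± 0.37 in wild type (adjusted p = 0.322) and 0.84 ± 0.34 in R6/2 mice (adjusted p = 0.263), with an interaction of 2.04 ± 0.50 (adjusted p = 0.305). For Gng2 and Gnb2 the interaction was 0.83 ± 0.29 and 0.80 ± 0.27 (adjusted p = 0.315 for both). None of these passed the threshold. The genotype change of Gng4 in untreated mice was not called in the main fit. It was called lower with signals under 20 set to 20 (-0.76, adjusted p = 0.0279) and without untreated R6/2 array 4 (-1.12, adjusted p = 0.0429).

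In R6/2 mice the smallest p values with treatment belonged to Gnb2 (0.69 ± 0.18, adjusted p = 0.246), 1 probe set of Gnai2 (99598_g_at, 0.50 ± 0.16, adjusted p = 0.247) and Gnai3 (-0.51 ± 0.18, adjusted p = 0.251). The other Gnai2 probe sets gave 0.03 and 0.18. Without untreated R6/2 array 1, Gnb2 alone passed among the members (0.81, adjusted p = 0.045). In wild type mice the smallest p values were those of Gng4, Rgs4 and Gng2 (-0.53 ± 0.21, adjusted p = 0.424).

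**Figure D5:**
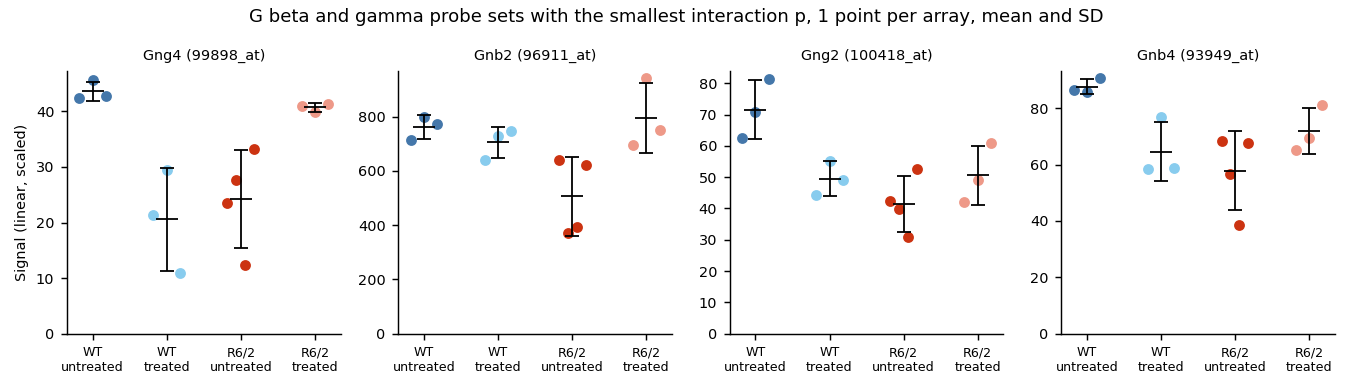
Signals (linear scale, from 0) of Gng4, Gnb2, Gng2 and Gnb4, 1 point for each array, with the mean and SD of each group. For Gng4 the treated wild type arrays (11 to 29.5) lie below the untreated ones (42.4 to 45.6), and the treated R6/2 arrays (39.8 to 41.4) lie above the untreated ones (12.3 to 33.2).

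Lists of other genes of the cascade, chosen with earlier results of these data known, showed calls in the lower direction alone. Of 14 kept striatal G protein coupled receptors 5 were lower in untreated R6/2 mice, where 6.41% of all probe sets were: the dopamine receptor gene Drd2 (-0.76 ± 0.17), the muscarinic receptor gene Chrm1 (-1.41 ± 0.25), the serotonin receptor gene Htr1b (-1.23 ± 0.35), the adrenergic receptor gene Adra2c (-0.99 ± 0.14) and the somatostatin receptor gene Sstr2 (-1.34 ± 0.27). Of 17 kept receptor kinases, arrestins and modulators 2 were lower, the beta-arrestin gene Arrb1 (-0.69 ± 0.17) and Rasd1, a Ras-like modulator of G proteins (-1.13 ± 0.18). Of 21 kept genes of cyclic AMP effectors 3 were lower, Prkaca, the catalytic subunit of protein kinase A (-0.84 ± 0.24), Rap1gap (-0.87 ± 0.21) and the protein kinase A substrate gene Arpp19 (-1.56 ± 0.18). Without untreated R6/2 arrays 2 and 3, Chrm1 (-0.88), Adra2c (-0.93), Sstr2 (-1.26), Rasd1 (-1.06) and Arpp19 (-1.60) were still called. Drd2 (-0.58, adjusted p = 0.0722), Htr1b (-1.12, adjusted p = 0.196), Arrb1 (-0.52, adjusted p = 0.114), Rap1gap (-0.52, adjusted p = 0.124) and Prkaca (-0.36, adjusted p = 0.182) were not. Drd2 is also 1 of the striatal projection neuron markers above. The untreated medians of these lists were -0.28, -0.18 and -0.04, against 0.04 over all kept probe sets.

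In treated mice Drd2 (-0.93 ± 0.18), Rasd1 (-1.38 ± 0.19) and Arpp19 (-1.59 ± 0.19) were called, 1 from each list. These stand against 0.711% of all probe sets called lower. Averaged over treatment 4 of 14, 1 of 17 and 4 of 21 genes were lower, against 4.04% of all probe sets, and for the modulators 1 of 17 is near that share. These were Drd2, Chrm1, Adra2c and Sstr2 among the receptors, Rasd1 among the modulators, and Arpp19, Rap1gap, Pkig, an inhibitor of protein kinase A (-0.38 ± 0.10), and Ppp1r1a, an inhibitor of protein phosphatase 1 (-0.60 ± 0.12), among the effectors. Of these averaged calls that of Pkig was lost without untreated R6/2 arrays 2 and 3 (-0.28, adjusted p = 0.0903). No gene of the 3 lists was called with treatment or for the interaction, where 0.0% of all probe sets were.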

How the data were processed

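The authors deposited 1 intensity per probe set and array on a linear scale, scaled so that the mean after trimming 2% at each end was about 100 on each array; that scaling was found from the values, and the software is not given in the sources used here. Of the probe sets, 66 controls were left out, 12422 remained, and 10833 of these had 1 gene in the platform annotation. Values under 3.1 (the 10th percentile) were set to 3.1 and log2 was taken, with no further normalization because array medians lay within 10% of their mean. Group means over all 13 arrays were fitted with limma 3.58.1 in R 4.3.3 (lmFit, contrasts.fit, eBayes with trend), and p-values were adjusted by Benjamini-Hochberg over the 7453 kept probe sets. The fit was tested on simulated data. No pair of arrays held the same values throughout. The number of arrays limits the precision.

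Samples were grouped by their titles. The members, the lists and the named genes were chosen with earlier results of these data known. Named were all members past the threshold, the 3 with the smallest p where a comparison had fewer, the brightest probe set of each family, striatal or activity-linked members, the other probe sets of any gene named, and list genes past the threshold; other members are named by count or range. Alternatives changed the normalization, the floor, the filter, the arrays in the fit, the variance moderation and the array weights, and left out arrays. Sequences are from RefSeq windows, and protein and probe sequences were not used here.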

Additional observations from a re-analysis of the deposited data

Results flagged for a closer look

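In groups of 4 arrays, a single array can lie far from the others by Dixon's criterion, which chance meets in about 1 of 20 groups. The untreated R6/2 group was examined for every kept probe set of the named members, so chance alone can give such cases. Among the named members this held for Rgs14, where untreated R6/2 array 3 read 146.6 and the other 3 arrays 198.5 to 204, and for Pde1a on 160861_s_at, where untreated R6/2 array 2 read 46.3 and the other 3 arrays 54 to 55.4. The call of Rgs14 in untreated mice did not depend on array 3.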

How the results depend on the processing

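No paired analysis was possible because the labels give the groups no shared replicate numbers. Averaged over treatment, the count of members called stayed within 1.5 times its value of 10, at 9 to 13 under the processing alternatives (3.45% to 12.5% of all probe sets called) and 7 to 10 with 1 array left out (3.53% to 9.46%). The untreated count of 14 (11.9% of all) fell to 4 with only the compared arrays in the fit (3.26%) and to 4 without untreated R6/2 arrays 2 and 3 (2.24%), and was 3 to 18 with 1 array left out (2.09% to 17.5%). The treated count of 3 (0.792% of all) was 8 with array weights (2.79%), 5 without those arrays (1.6%), and 1 to 5 with 1 array left out (0.268% to 1.3%). In all of these fits of the 3 genotype comparisons the members' share was above that of all probe sets. The fits share most of their arrays, so they are not independent. Most calls were of RGS probe sets, 7 lower and 2 higher of the 14 untreated ones. Of the 10 averaged calls 7 lower and 1 higher were of that family. The treatment count in R6/2 mice was 0 to 1 with 1 array left out (0.0% to 1.56%). In wild type mice it was 1 with no filter, a probe set of Gnao1 (103844_at, -1.96, adjusted p = 0.0218) at signals of 2.1 to 17.6, where 0.0161% of all were called, and 0 otherwise. That probe set was then also called between genotypes, untreated (-1.96) and on average (-0.86). The interaction count was 0 throughout. No change called for a member reversed its sign under any alternative. The number of arrays limits all comparisons.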
